A study of Mus musculus with 10 samples.

Results

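The genes of the catalytic proteasome subunits and of the proteasome activators PA28 were examined as a set of 9 among the 25814 genes of the deposited tables. They were chosen by name: the constitutive catalytic subunits Psmb5, Psmb6 and Psmb7, their interferon-inducible counterparts Psmb8, Psmb9 and Psmb10, the PA28αβ genes Psme1 and Psme2, and the PA28γ gene Psme3. All 9 names were found in each of the 10 tables, and all 9 passed the filter on low counts in every comparison.

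The proteasome is a barrel of stacked protein rings that cuts ubiquitin-marked proteins into peptides. In most cells its cutting sites are formed by the β5, β1 and β2 subunits, which are encoded by Psmb5, Psmb6 and Psmb7. In cells of the immune system, and in other cells after exposure to interferons, newly built particles take up β5i, β1i and β2i, encoded by Psmb8, Psmb9 and Psmb10, and are then called immunoproteasomes. Their peptides are carried into the endoplasmic reticulum by the transporter TAP and loaded on MHC class I molecules, which CD8+ T cells read. PA28αβ is an interferon-inducible cap on the ends of the barrel, whereas PA28γ is a related nuclear cap.

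RNA was sequenced from 5 groups of mouse cells with 2 libraries each. Keratinocytes from the tail skin of adult C57/B6 mice were grown alone or together with activated CD8+ T cells. Splenic CD8+ T cells were stimulated with αCD3/CD28 Abs for 1 d, and were lysed then, or after further culture in a mixture of keratinocyte and T-cell medium (mixed medium, Kera-Med in the labels), or after co-culture with keratinocytes. Co-culture lasted 1 d according to the methods of the study, whereas the deposited design text gives 1 h. All T cells were pre-activated, and no group holds resting T cells. Nothing in the labels says that the libraries of a group came from separate animals, so p-values measure the spread between these libraries, which may be technical. The replicate numbers of the keratinocytes and of the activated T cells are those of the labels, and the libraries of the other T-cell groups are called a and b, with no pairing between groups.

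Exon reads per library ranged from 12864931 to 18019609, and 78.2 to 87.2% of them were uniquely mapped. The keratinocyte libraries were not free of T-cell transcripts. Cd3d, a chain of the T-cell receptor complex, was at 18.1 and 67.1 RPKM (reads per kilobase of exon, scaled to the mapped reads of the library) in the cultures alone, against 19.0 and 115 RPKM after co-culture, the second value in each case from the library numbered 2. The summed level of 8 T-cell markers was 127 and 504 RPKM in keratinocytes alone, 163 and 884 RPKM in co-cultured keratinocytes, and 1239 to 2193 RPKM in the T-cell libraries, and none of the 8 was at 0. The CD8 transcripts Cd8a and Cd8b1 together reached only 0.224 to 3.16 RPKM in the keratinocyte libraries against 251 to 1096 RPKM in T cells. Cd4 reached 11.4 to 84.5 RPKM in keratinocyte libraries and 16.8 to 102 RPKM in T-cell libraries. B-cell markers summed to 0.531 to 3.85 RPKM and myeloid markers to 37.5 to 68.6 RPKM in keratinocyte libraries. In T-cell libraries these sums were 16.6 to 92.3 and 15.1 to 67.2 RPKM. The myeloid sum is of 6 genes, as 1 of the 7 listed was not found. Among them, Lyz2 was higher in the keratinocyte libraries numbered 2, with 6.69 and 27.4 RPKM alone and 7.30 and 37.6 RPKM after co-culture. Cd68 was not, with 40.7 and 39.4 RPKM alone and 29.7 and 24.0 RPKM after co-culture. Cd207 of Langerhans cells was at 0 in all libraries. Immune cells are known to express immunoproteasome genes, so the folds of the members in keratinocytes are given below for each library number too. Fold changes of the other proteasome genes and of most genes of class I loading rest on all keratinocyte libraries. Keratin 14 (Krt14) was at 7240 to 11836 RPKM in keratinocyte libraries, at 61.6 and 16.8 RPKM in co-cultured T cells and at most at 1.06 RPKM in the other T cells.

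Psmb8 and Psmb9 are neighbours on chromosome 17 of GRCm38, in the MHC class II region, on either side of the transporter gene Tap1. Psmb9 spans positions 34181988 to 34187764 on the minus strand, and Psmb8 spans 34197721 to 34201454 on the plus strand. Between the RefSeq starts of Psmb9 (34187330) and Tap1 (34187556), which are transcribed in opposite directions, lie 225 bases. Psme1 (chromosome 14, 55578123 to 55581529, plus strand) and Psme2 (chromosome 14, 55587441 to 55591113, minus strand) are close neighbours too, and Psmb5 is on the same chromosome (54614119 to 54618022, minus strand). Psmb6 (70525367 to 70527858, plus strand) and Psme3 (101316213 to 101323537, plus strand) are on chromosome 11, Psmb7 (38588036 to 38644087, minus strand) is on chromosome 2 and Psmb10 (105935735 to 105938444, minus strand) is on chromosome 8. All 9 are protein coding. No inducible catalytic subunit lies beside its constitutive partner.

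RefSeq promoters of GRCm38.p6, each with 250 bases before and 50 after a start, were at hand for 8 of the 9 members, Psmb7 being the exception. RefSeq starts can differ from the ends of the gene spans given above. The promoters of Psmb8 (34197945 to 34198244), Psmb9 (34187281 to 34187580) and Psme1 (55578244 to 55578543) lie inside those spans. Both strands were searched for the core of the interferon-stimulated response element (GAAA, any 2 bases, and GAAA again), for TTCNNNGAA, the gamma-activated site bound by STAT dimers, and for TGACNNNGC, the core of the antioxidant response element. These letters occur in 3.43%, 8.29% and 12.4% of all 32817 promoters of that length. The first was found in Psme1, the second in Psmb8, and the third in Psmb5 and Psmb6, once each, and in no other promoter of a member. They are shown because they are the only matches among the members, each with 10 bases on either side and the match in capitals, and they are matches of letters, not sites shown to be bound.
Psmb8, chr17:34198088-34198116, plus strand, match beginning 97 bases before the start: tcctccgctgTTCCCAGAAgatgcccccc
Psme1, chr14:55578493-55578522, plus strand, match beginning at base 10 of the transcript, on the opposite strand: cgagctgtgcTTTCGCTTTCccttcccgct
Psmb5, chr14:54618024-54618052, minus strand, match beginning 47 bases before the start: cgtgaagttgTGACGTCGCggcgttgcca
Psmb6, chr11:70525338-70525366, plus strand, match beginning 9 bases before the start: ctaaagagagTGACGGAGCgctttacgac

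By group means, the constitutive subunits were the most abundant members in keratinocytes alone, and the inducible subunits the least abundant. Psmb7 was at 146 and 215 RPKM, Psmb6 at 132 and 163 RPKM, and Psmb5 at 131 and 146 RPKM in the libraries numbered 1 and 2. Psmb8 was at 17.4 and 59.9 RPKM, Psmb10 at 7.59 and 23.7 RPKM, and Psmb9 at 4.86 and 20.0 RPKM. The means of the activators lay between, with Psme2 at 41.5 and 85.8, Psme1 at 38.7 and 69.5 and Psme3 at 54.5 and 37.7 RPKM, but Psmb8 in the library numbered 2 was above both libraries of Psme3. No library of an inducible catalytic subunit reached the lowest library of a constitutive one, whereas neighbours within each set overlapped, as did the 3 activator genes. For 5 of the members, Psmb8, Psmb9, Psmb10, Psme1 and Psme2, the library numbered 2, with more T-cell transcripts, was 1.80 to 4.11 times as high as the library numbered 1.

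**Figure D1:**
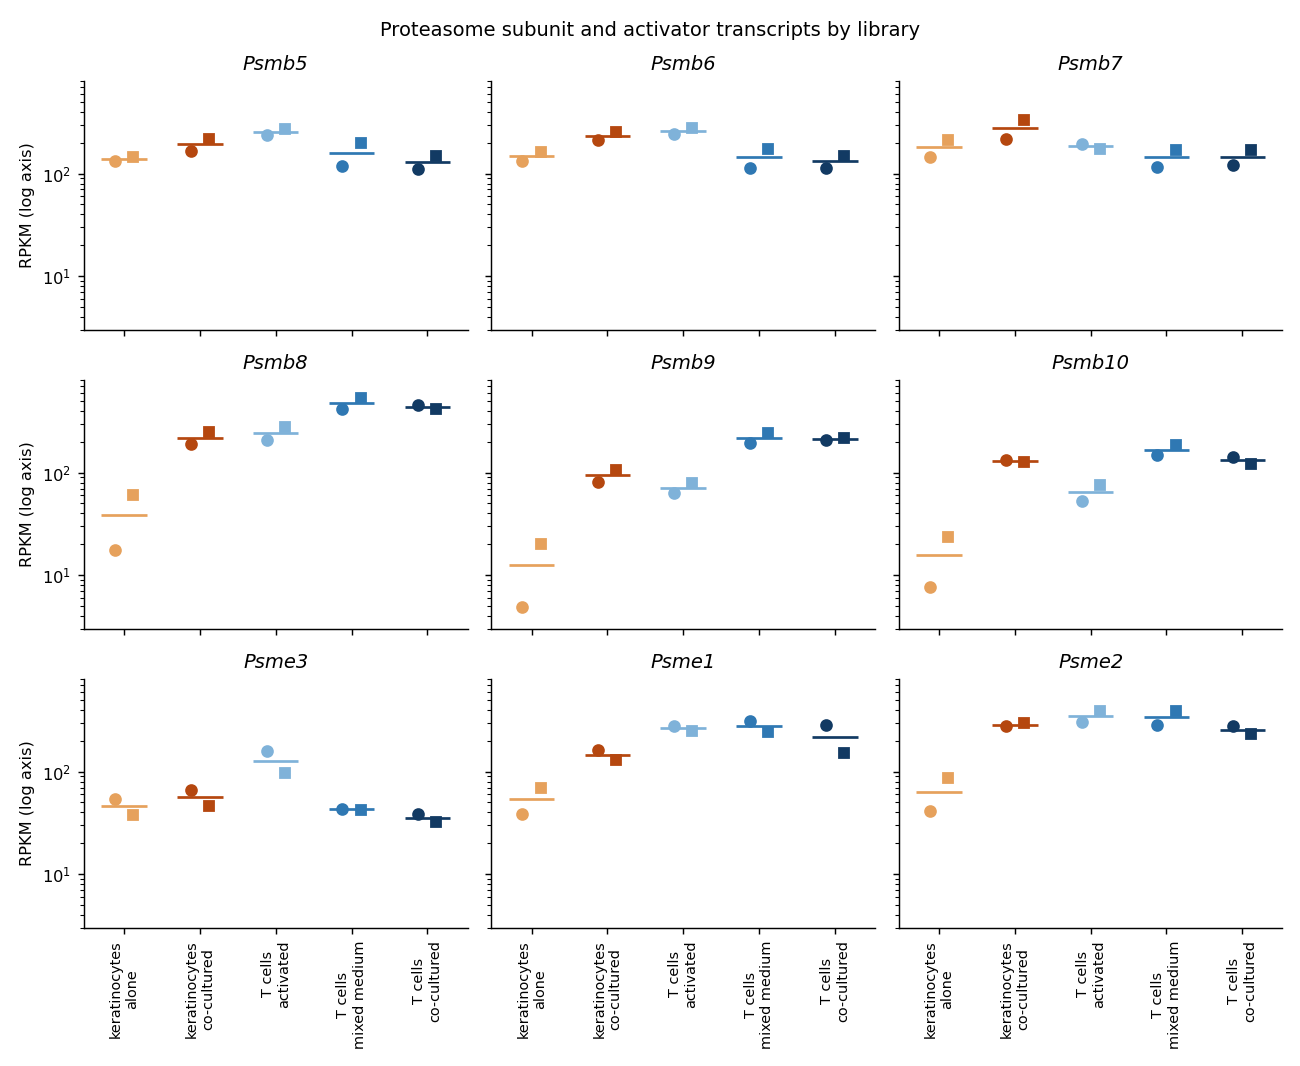
RPKM (log axis) of the 9 members in each library of the 5 groups, with circles for libraries numbered 1 or a, squares for libraries numbered 2 or b, and bars for group means. Psmb8, Psmb9 and Psmb10 sit lowest in keratinocytes alone, between 4.86 and 59.9 RPKM, while Psmb5, Psmb6 and Psmb7 stay between 112 and 336 RPKM in all 10 libraries.

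The first comparison was between keratinocytes co-cultured with activated CD8+ T cells and keratinocytes alone. Co-cultures were held in the mixed medium, and keratinocytes are described as kept in keratinocyte medium. Whether keratinocytes alone also had the mixed medium is not stated, so T cells and medium cannot be told apart here. In co-cultured keratinocytes Psmb8 was at 192 and 247 RPKM, Psmb9 at 81.3 and 107 RPKM, and Psmb10 at 134 and 126 RPKM. Both co-cultured libraries lay above both libraries of keratinocytes alone for each of these genes. The edgeR log2 fold changes were 2.57 ± 0.70 (SE, n = 2 against 2) for Psmb8, 2.98 ± 0.77 for Psmb9 and 3.11 ± 0.64 for Psmb10, which is 5.93-fold, 7.90-fold and 8.63-fold. None of the 3 passed the test, each with an adjusted p of 0.658 (edgeR quasi-likelihood test, Benjamini-Hochberg).

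Of the activators, Psme2 was at 277 and 296 RPKM and Psme1 at 162 and 129 RPKM in co-cultured keratinocytes. These values were above both libraries of keratinocytes alone, with log2 fold changes of 2.23 ± 0.47 and 1.48 ± 0.41. Psme3, the gene of the nuclear activator, was at 66.7 and 45.8 RPKM, overlapped the keratinocytes alone and had a log2 fold change of 0.35 ± 0.34.

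The constitutive subunits were above both libraries of keratinocytes alone as well, but by less. Psmb5 was at 167 and 219 RPKM (log2 fold change 0.56 ± 0.33), Psmb6 at 211 and 255 RPKM (0.74 ± 0.33) and Psmb7 at 217 and 336 RPKM (0.70 ± 0.43). With a trend with gene length removed, these log2 fold changes were smaller, at 0.20, 0.40 and 0.37. Those of Psmb8, Psmb9 and Psmb10 were then at 2.35, 2.77 and 2.88. The median log2 fold change of the 9 members was 1.48, beside 0.02 over all 12515 genes tested.

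With edgeR 0 of the 9 members, and 0% of all genes, had an adjusted p under 0.05, with adjusted p-values of the members from 0.658 to 0.736. Unadjusted p-values under 0.05 were found for 5 members, Psmb8, Psmb9, Psmb10, Psme1 and Psme2, all of them higher, beside 3.08% of all genes. For 8 of the 9 members both co-cultured libraries were higher than both others, beside 19.8% of all genes. DESeq2 called 4 members, Psmb8, Psmb9, Psmb10 and Psme2, with adjusted p-values from 0.000177 to 0.0111. The alternative settings, DESeq2 among them, called 0 to 515 of all genes, and the share with DESeq2 alone is not given here. The 5 inducible members are in a list that the study chose on these samples, so their direction is not independent evidence.

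**Figure D2:**
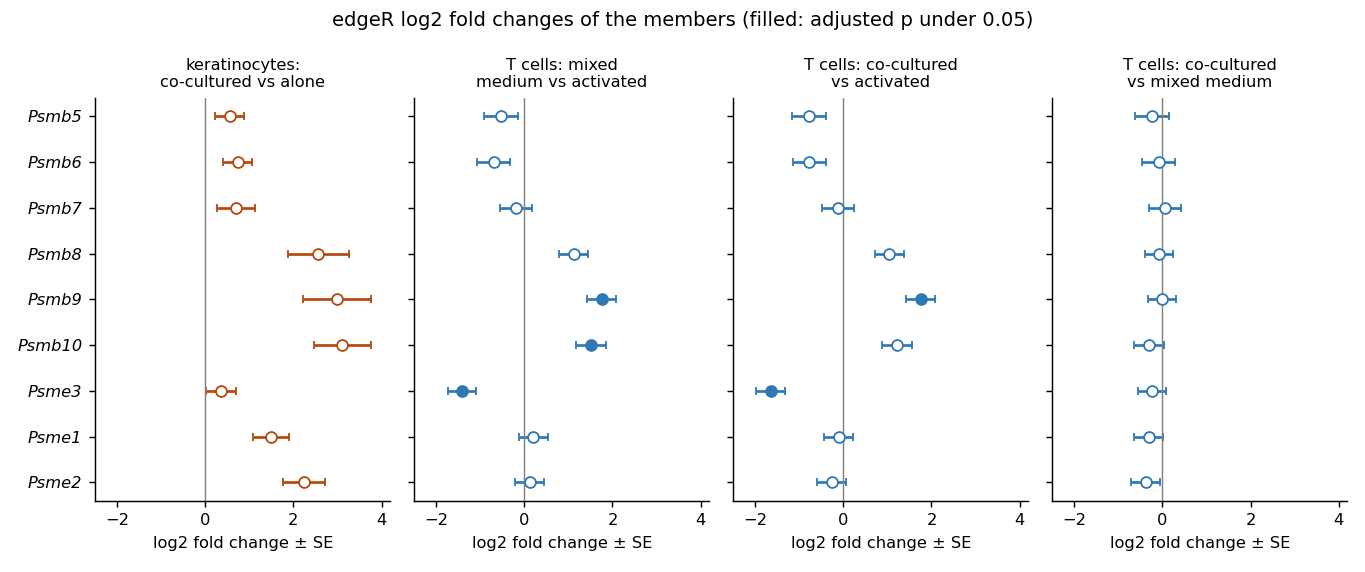
edgeR log2 fold changes (points) with standard errors (lines) of the 9 members in 4 comparisons, filled where the adjusted p was under 0.05. In keratinocytes the 3 inducible catalytic subunits lie between 2.57 and 3.11 with open symbols, and in T cells only Psmb9, Psmb10 and Psme3 have filled symbols.

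Between libraries of the same number T-cell transcripts were higher after co-culture too, and they were lowest in the libraries numbered 1. Between those libraries Cd3d differed least of the 8 T-cell markers, with 18.1 RPKM alone and 19.0 RPKM in co-culture. The 8 markers summed to 127 and 163 RPKM there, and Cd8a with Cd8b1 to 0.224 and 1.32 RPKM. Between the same libraries Psmb8 went from 17.4 to 192 RPKM (11.0-fold), Psmb9 from 4.86 to 81.3 RPKM (16.7-fold) and Psmb10 from 7.59 to 134 RPKM (17.6-fold). Between the libraries numbered 2 the folds were 4.13, 5.35 and 5.33, with Cd3d at 67.1 and 115 RPKM. Psme2 differed 6.66-fold and 3.45-fold, and Psme1 4.19-fold and 1.85-fold, between the libraries numbered 1 and between those numbered 2. Psmb5, Psmb6, Psmb7 and Psme3 differed by 1.21-fold to 1.60-fold in either pair.

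Without both libraries numbered 2, in a fit that took the spread from the T-cell libraries, the log2 fold changes were 3.42 for Psmb8, 4.02 for Psmb9 and 4.10 for Psmb10, with adjusted p-values of 0.219, 0.0907 and 0.0907 (edgeR), so that no member was called. The T-cell markers were at a median of 5.27% and 23.8% of their level in T cells in mixed medium in keratinocytes alone, and of 7.39% and 41.3% in co-cultured keratinocytes. At these shares, the Psmb8 level of such T cells would give 25.1 and 113 RPKM in keratinocytes alone, which is more than was measured, and 35.2 and 197 RPKM in co-cultured keratinocytes, which is less. Subtraction left values below 0 in both libraries of keratinocytes alone, -7.69 and -53.6 RPKM for Psmb8, -6.64 and -32.0 RPKM for Psmb9, and -1.25 and -16.3 RPKM for Psmb10. In co-cultured keratinocytes it left 157 and 50.4 RPKM of Psmb8, 65.1 and 16.8 RPKM of Psmb9, and 121 and 56.8 RPKM of Psmb10. For Psmb8 and Psmb9 the value left in the co-cultured library numbered 2 was below that measured in keratinocytes alone numbered 2, whereas for Psmb10 it was above. That sets a value after subtraction beside a measured one. With subtraction in both, the co-cultured library was above for all 3 genes, but beside values below 0. By Cd8a and Cd8b1 alone, which were at 0.0306 to 0.386% of their T-cell level, 17.3 and 58.97 RPKM of Psmb8 were left in keratinocytes alone and 191 and 245 RPKM in co-culture. The 8 T-cell markers and the CD8 transcripts thus gave unlike shares, so T cells in mixed medium may not match the source of this RNA. The values left are a description only. The level of Psmb8, Psmb9 and Psmb10 in the keratinocytes proper of the cultures alone was not tested. Fewer cells of a type and less RNA per cell cannot be told apart in such bulk samples.

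**Figure D3:**
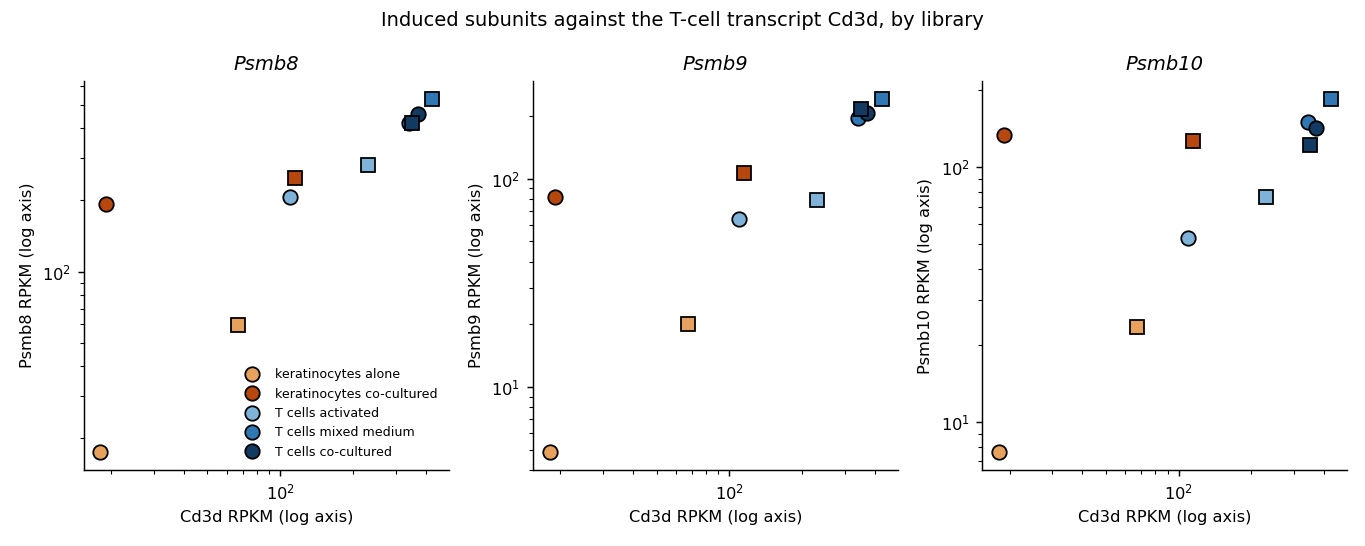
RPKM of Psmb8, Psmb9 and Psmb10 against RPKM of the T-cell transcript Cd3d (both log axes) in each library, with colours for groups, circles for libraries numbered 1 or a and squares for 2 or b. The keratinocyte libraries numbered 1 have Cd3d at 18.1 and 19.0 RPKM and Psmb8 at 17.4 and 192 RPKM. The sum of 8 T-cell markers differed more between them than Cd3d, with 127 and 163 RPKM.

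Each inducible subunit replaces a given constitutive partner, so the percentage of the inducible transcript in the RPKM of both was taken for each pair. It does not depend on scaling between libraries, but its absolute value rests on the summed length of all annotated exons, 1672 bases for Psmb8 and 899 for Psmb5. Psmb8 made up 11.7 and 29.0% of its pair with Psmb5 in keratinocytes alone and 53.4 and 53.0% in co-cultured keratinocytes. Psmb9 made up 3.56 and 10.9% of its pair with Psmb6, and 27.8 and 29.5% after co-culture. Psmb10 made up 4.95 and 9.91% of its pair with Psmb7, and 38.2 and 27.3% after co-culture. In all 3 pairs both co-cultured libraries were above both others, and the inducible transcript exceeded its partner only in that of Psmb8 and Psmb5.

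On the log2 scale the ratio of the inducible to the constitutive partner was higher in co-cultured keratinocytes by 2.29 for Psmb8, 2.58 for Psmb9 and 2.67 for Psmb10, that is 4.89-fold, 5.96-fold and 6.36-fold. These values moved most with the libraries of keratinocytes alone: without the library numbered 1 they were 1.48, 1.71 and 2.13, and without that numbered 2 they were 3.10, 3.44 and 3.21. The ratios of the activators differed likewise, by 1.19 for Psme1 over Psme3 and by 1.98 for Psme2 over Psme3, with 0.50 and 1.19 without keratinocytes alone numbered 1, and 1.88 and 2.76 without those numbered 2. Each of the 5 ratios had a p of 0.333 (exact permutation test, two-sided, adjusted 0.333), which is the smallest that 2 against 2 libraries allow.

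Psmb8 made up 46.2 and 50.6% of its pair in activated T cells, 77.9 and 72.8% in mixed medium, and 80.4 and 74.0% after co-culture. Psmb9 made up 20.9 and 22.1%, 63.2 and 57.9%, and 64.4 and 59.1%, and Psmb10 21.5 and 30.4%, 56.2 and 51.9%, and 53.9 and 42.0% in the same order. For every pair the activated T cells lay below the other T cells, while T cells in mixed medium and after co-culture overlapped for Psmb8, Psmb9 and Psmb10. Activated T cells lay below co-cultured keratinocytes in the pairs of Psmb8 and Psmb9 and overlapped with them in that of Psmb10, a difference that was not tested, with 48.4 ± 3.1% and 53.2 ± 0.3% (SD, n = 2 each) for Psmb8, 21.5 ± 0.8% and 28.7 ± 1.2% for Psmb9, and 25.9 ± 6.3% and 32.7 ± 7.7% for Psmb10.

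Over all 6 T-cell and 4 keratinocyte libraries, the log2 ratio was higher in T cells by 2.06 for Psmb8, 2.42 for Psmb9 and 1.92 for Psmb10, each with p = 0.0571 (exact permutation test, two-sided, adjusted over 5 ratios 0.0833). The ratio of Psme1 to Psme3 was higher by 1.33 (exact p = 0.0667, adjusted 0.0833) and that of Psme2 to Psme3 by 1.05 (exact p = 0.181, adjusted 0.181). None passed, and libraries of both cell types overlapped in all 5 ratios. Groups with unlike ratios were pooled in this test. For Psmb8 the mean log2 ratios were -2.10 in keratinocytes alone and 0.19 in co-cultured keratinocytes. In T cells they were -0.09 when activated, 1.62 in mixed medium and 1.77 after co-culture. The p-values thus do not measure the spread between libraries of a single group.

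**Figure D4:**
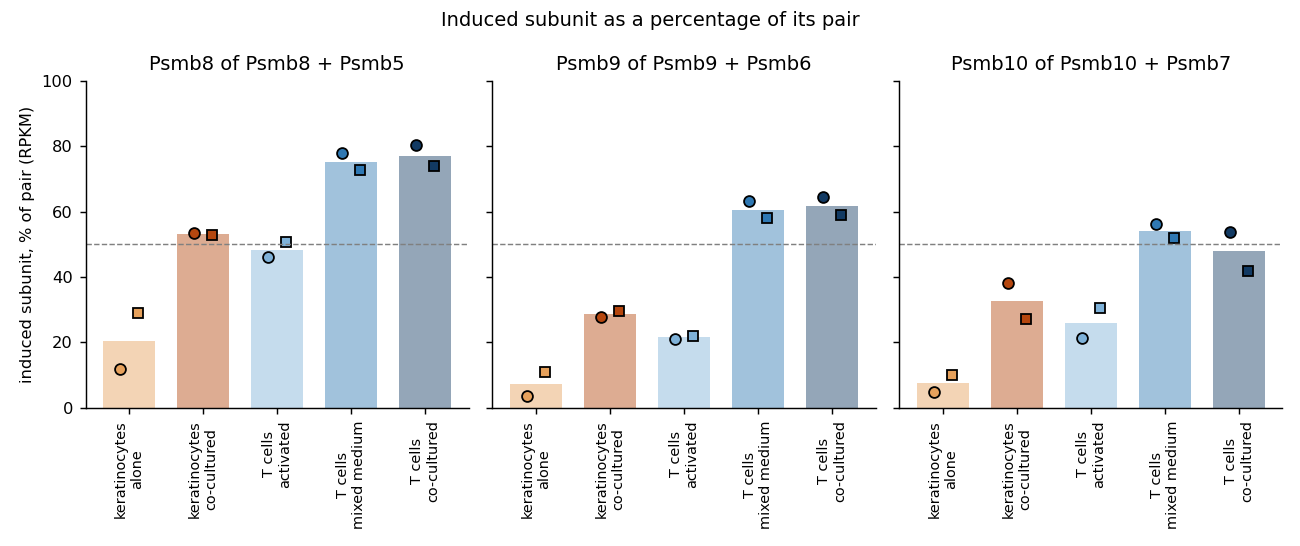
Percentage of the inducible transcript in the summed RPKM of Psmb8 and Psmb5, Psmb9 and Psmb6, and Psmb10 and Psmb7, with bars for group means, circles for libraries numbered 1 or a, squares for 2 or b, and a dashed line at equal levels. Psmb8 reached 53.4 and 53.0% in co-cultured keratinocytes and 72.8 to 80.4% in T cells in mixed medium or co-culture.

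T cells in mixed medium and T cells after co-culture were next compared with activated T cells. The end of stimulation with αCD3/CD28 Abs, the change of medium and the further time in culture cannot be told apart in these comparisons. Psmb9 was at 63.8 and 79.2 RPKM in activated T cells, at 195 and 242 RPKM in mixed medium, and at 206 and 216 RPKM after co-culture. Psmb10 was at 52.8 and 76.4, at 150 and 186, and at 143 and 122 RPKM. Psmb8 was at 206 and 280, at 421 and 532, and at 460 and 420 RPKM. All libraries from mixed medium and co-culture were above those of activated T cells for these genes, as were those of 22.1% of all genes in mixed medium and of 23.6% after co-culture.

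Against activated T cells, Psmb9 rose in mixed medium by 1.76 ± 0.33 on the log2 scale (SE, n = 2 against 2, adjusted p = 0.0243, edgeR) and after co-culture by 1.75 ± 0.33 (adjusted p = 0.0170, edgeR). Psmb10 rose in mixed medium by 1.52 ± 0.34 (adjusted p = 0.0397, edgeR), and its value after co-culture, 1.22 ± 0.34, did not pass (adjusted p = 0.0576, edgeR). The log2 fold changes of Psmb8, 1.12 ± 0.33 and 1.04 ± 0.33, did not pass either (adjusted p = 0.0820 and 0.0821, edgeR), whereas DESeq2 called both (adjusted p = 0.0142 and 0.0211).

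Psme3 went the opposite way. It was at 158 and 96.6 RPKM in activated T cells, at 43.0 and 42.6 RPKM in mixed medium and at 38.4 and 32.0 RPKM after co-culture, with no overlap between activated and other T cells. It fell by 1.41 ± 0.32 on the log2 scale in mixed medium (adjusted p = 0.0401, edgeR) and fell by 1.65 ± 0.32 after co-culture (adjusted p = 0.0191, edgeR). Psme1 was at 280 and 252, 315 and 242, and 287 and 153 RPKM, and Psme2 at 302 and 393, 288 and 392, and 278 and 233 RPKM, with log2 fold changes against activated T cells between -0.26 and 0.21 that did not pass.

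Of the constitutive subunits, Psmb5 was at 240 and 273 RPKM in activated T cells, at 119 and 198 RPKM in mixed medium and at 112 and 148 RPKM after co-culture. Psmb6 was at 241 and 280, 113 and 175, and 114 and 150 RPKM, and Psmb7 at 193 and 175, 117 and 172, and 122 and 169 RPKM. Activated T cells were above the others for all 3 genes (and for 32.5% and 33.9% of all genes against mixed medium and co-culture), but the log2 fold changes, -0.78 to -0.12, did not pass.

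In mixed medium 3 of the 9 members were called, 2 higher (2.32% of all 11863 genes were called higher) and 1 lower (4.22% of all genes). After co-culture 2 of the 9 were called, 1 higher (4.59% of all genes) and 1 lower (5.72% of all genes). Both comparisons share the activated T cells. Leaving out the library of activated T cells numbered 1, or either library in mixed medium, left no member called in mixed medium, and Psmb10 was also lost there without the activated library numbered 2 (adjusted p = 0.0528, edgeR). After co-culture no member was called without the activated library numbered 1 or the co-cultured library b, and 1 without the co-cultured library a.

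The effect of keratinocytes on T cells was asked by comparing co-culture with mixed medium alone. The log2 fold changes of the 9 members lay between -0.38 ± 0.33 for Psme2 and 0.06 ± 0.36 for Psmb7, and that of Psmb9 was -0.01 ± 0.32. No member passed (edgeR, adjusted p = 1.0 for each; 0 with an unadjusted p under 0.05, beside 3.45% of all genes; DESeq2 0), and 0.261% of all genes did. The co-cultured libraries were both below those in mixed medium for Psmb10, Psme2 and Psme3, beside 13.1% of all genes, and overlapped with them for the other members. With standard errors from 0.31 to 0.39, only large differences could have been detected.

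Between the cell types before co-culture, activated T cells had higher levels of 6 members than keratinocytes alone: Psmb8 (log2 fold change 2.50 ± 0.57), Psme2 (2.30 ± 0.43), Psmb9 (2.37 ± 0.61), Psme1 (2.14 ± 0.37), Psmb10 (1.90 ± 0.52) and Psme3 (1.30 ± 0.33), with adjusted p-values from 0.00313 to 0.0207 (edgeR). Of all 13394 genes, 35.5% were called, 1740 of them higher. Leaving out 1 library ended the call of Psmb9 (without activated T cells numbered 2, adjusted p = 0.0587, edgeR), of Psmb10 (without keratinocytes alone numbered 1, 0.0664, or activated T cells numbered 2, 0.0850) and of Psme3 (without keratinocytes alone numbered 2, 0.0785, or activated T cells numbered 1, 0.0694). Psmb5 (0.74 ± 0.41), Psmb6 (0.68 ± 0.39) and Psmb7 (-0.13 ± 0.43) did not pass. After co-culture no member was called between T cells and keratinocytes (0 of 9 with an unadjusted p under 0.05, beside 37.9% of all genes; DESeq2 0), beside 23.7% of all genes called in either direction. The log2 fold changes were then 1.06 ± 0.55 for Psmb8, 1.23 ± 0.59 for Psmb9 and 0.09 ± 0.50 for Psmb10. The part of the T-cell transcripts in the keratinocyte libraries, given above, was not tested in these comparisons.

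T cells in mixed medium and co-cultured T cells share their medium, which is not stated for keratinocytes alone and co-cultured. The difference between the effect of co-culture in keratinocytes and that in T cells was tested in a fit of 8 libraries. It was positive for all 9 members and largest for Psmb10 (3.40 ± 0.74 on the log2 scale), Psmb9 (2.98 ± 0.89), Psmb8 (2.64 ± 0.82) and Psme2 (2.61 ± 0.60). No member passed, with adjusted p-values from 0.155 upwards (edgeR), 5 had an unadjusted p under 0.05 (beside 2.47% of all genes with a positive difference), and 0.576% of all genes were called. DESeq2 called 2, Psmb10 and Psme2. The alternative settings, DESeq2 among them, called 0 to 353 of all genes, and the share with DESeq2 alone is not given here.

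The other genes of the proteasome followed in a list of 49, of which 48 were in the tables and 46 were tested. In keratinocytes none was called, and 42 of 46 had a log2 fold change above 0, with a median of 0.47 beside 0.02 over all genes. The 7 tested genes of the α ring, which gates the barrel, had a median of 0.95, the 4 of the non-catalytic β subunits 0.86, the 6 ATPases of the regulatory particle, which unfold substrates, 0.32, and its 16 other subunits 0.31. These medians are those of the main fit, in which no trend with gene length was removed. The largest values were those of the assembly chaperone Psmg4 (1.95 ± 0.47), Psma5 (1.27 ± 0.35) and Psma2 (1.06 ± 0.37), and the smallest those of Ddi2, a protease that processes the regulator Nfe2l1 (-0.85 ± 0.38), of AI314180, the mouse gene of the adaptor Ecm29 (-0.68 ± 0.58), and of Nfe2l1 itself, which drives constitutive proteasome genes (-0.43 ± 0.58). The adjusted p was at least 0.658 for each of these (edgeR).

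In T cells in mixed medium or co-culture, the other proteasome genes called against activated T cells were all lower, and most of them belong to the regulatory particle. In mixed medium 6 of 46 genes fell, beside 4.22% of all genes: the ATPases Psmc1 (-1.38 ± 0.32) and Psmc5 (-1.21 ± 0.29), the subunits Psmd1 (-1.71 ± 0.32), Psmd7 (-1.79 ± 0.32) and Psmd12 (-1.61 ± 0.33), and the deubiquitinase Uchl5 (-1.63 ± 0.33). After co-culture 11 fell, beside 5.72% of all genes. They were Psmc1, Psmc5, Psmd1, Psmd2, Psmd3, Psmd6, Psmd7, Psmd11, Psmd12, Uchl5 and the chaperone Psmg2, with log2 fold changes from -2.09 for Psmd1 to -1.29 for Psmd6. The median of all 46 was -0.71 in mixed medium and -0.77 after co-culture, beside -0.01 over all genes in both, and no gene of the α ring or of the non-catalytic β subunits was called. Between co-culture and mixed medium none of the 46 was called, with a median of -0.09. Scaling by library size moved the median of all genes to -0.13 in mixed medium and to -0.17 after co-culture.

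**Figure D5:**
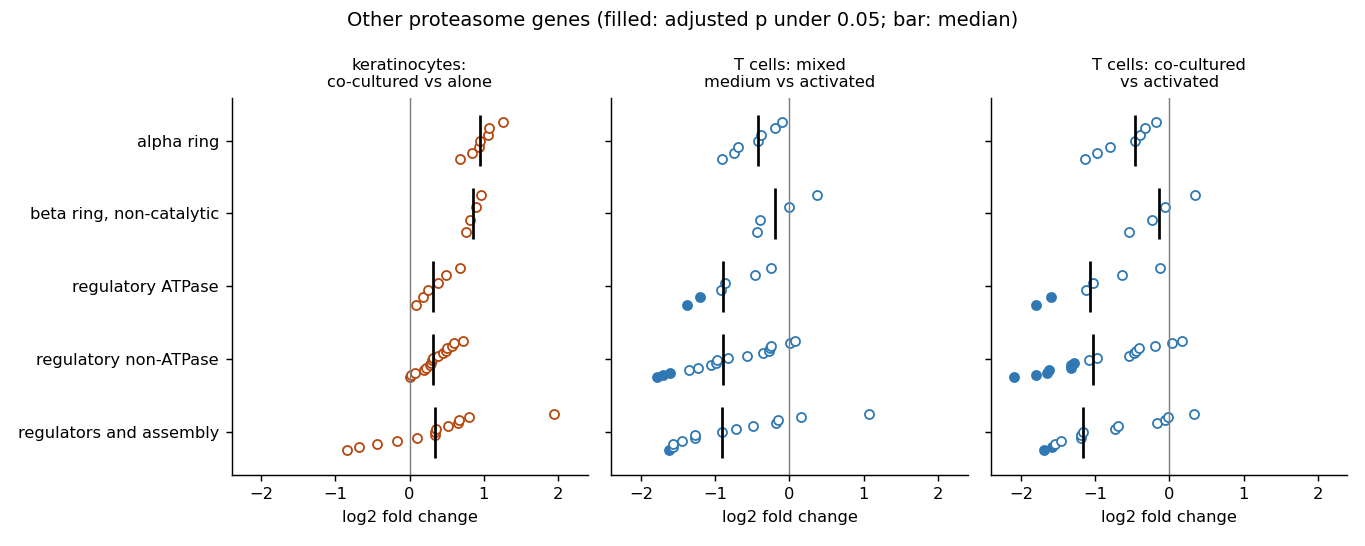
edgeR log2 fold changes of the 46 other proteasome genes tested, by list, in keratinocytes and in T cells, with filled symbols where the adjusted p was under 0.05 and black bars for list medians. In T cells the filled symbols lie at or below -1.21 and belong to the regulatory particle, its regulators and assembly factors.

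Between activated T cells and keratinocytes alone 14 of the 46 differed. Higher in T cells were 11 (beside 1740 of 13394 genes in all), among them the chaperones Psmg1 (1.70 ± 0.42), Psmg2 (2.06 ± 0.40), Psmg3 (1.94 ± 0.47) and Psmg4 (3.32 ± 0.57), Uchl5 (2.18 ± 0.33) and Psma5 (1.60 ± 0.46). Lower were Nfe2l1 (-3.54 ± 0.55), Ddi2 (-1.55 ± 0.50) and the activator Psme4 (-1.04 ± 0.35), beside 22.5% of all genes. After co-culture 11 were lower in T cells than in keratinocytes, beside 17.0% of all genes, with Nfe2l1 at -4.20 ± 0.57 and Psmd1 at -2.06 ± 0.31, and none was higher.

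Tap1, which moves peptides to class I molecules, was at 20.9 and 35.9 RPKM in keratinocytes alone, at 145 and 173 RPKM in co-cultured keratinocytes, and at 101 and 88.1, 263 and 299, and 323 and 327 RPKM in activated T cells, in mixed medium and after co-culture. Irf1, a transcription factor for inducible proteasome genes, was at 3.19 and 5.72 RPKM without T cells and at 58.3 and 62.3 RPKM with them. Its fold was 18.3 between the libraries numbered 1 and 10.9 between those numbered 2, and its log2 fold change of 3.83 ± 0.45 did not pass in keratinocytes (adjusted p = 0.434, edgeR), while the difference from the effect in T cells did (3.73 ± 0.54, adjusted p = 0.0364, edgeR). Nlrc5, a regulator of class I genes, was at 0.207 and 0.698 RPKM and at 5.14 and 1.75 RPKM after co-culture. Of the other genes of class I loading, Erap1 (1.98 ± 0.33), Tapbp (1.52 ± 0.53), Tap2 (1.33 ± 0.41) and B2m (1.19 ± 0.60) had higher values in both libraries of co-cultured keratinocytes and did not pass. Except for B2m, the genes named in this paragraph are in the list that the study chose on these samples. Tap1 rose in T cells against activated T cells, by 1.73 ± 0.29 in mixed medium (adjusted p = 0.0205, edgeR) and by 1.98 ± 0.30 after co-culture (adjusted p = 0.00934, edgeR).

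The genes with the most similar pattern were sought over the 10 libraries by Pearson's r of log2(RPKM + 1) among 6993 genes with a mean of at least 5 RPKM. For Psmb8 they were Psmb9 (r = 0.990), Ifi47 (0.979), H2-T22 (0.976), Osgep (0.971) and H2-T23 (0.970). For Psmb9 they were Psmb8 (0.990), H2-T22 (0.980), Tap1 (0.979), Tap2 (0.972) and Trim21 (0.971), and for Psmb10 Psmb9 (0.969), Trim21 (0.967), Irf1 (0.967), Lgals3bp (0.966) and Nmi (0.962). The libraries share 2 cell types and the T-cell transcripts described above, so these values are a description only.

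The reads behind these values differed in how well they could be placed. Exon reads per library ranged from 155 for Psmb9 in keratinocytes alone to 15334 for Psmb8 in T cells. All reads of Psmb5, Psmb6, Psmb8, Psmb10, Psme1 and Psme3, and at least 97.4% of those of Psmb9, were uniquely mapped, but only 63.7 to 74.4% of those of Psmb7 and 30.7 to 35.9% of those of Psme2. Psme2b, an intron-less copy of Psme2 on chromosome 11 (48945354 to 48946190, minus strand), was given 0 to 99 reads, none of them uniquely mapped, and reads of Psme2 that were not uniquely mapped may belong to either gene. With uniquely mapped reads only, the log2 fold change of Psme2 in keratinocytes was 2.18. Psme2 reads spanned exon junctions in 68.4 to 75.0% of cases. An intron-less copy carries the same joined exons, so these reads do not tell Psme2 from Psme2b. Reads in introns were few, at most 143 in a library, for Psmb10, or 10.9% of its reads.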

How the data were processed

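Single-end reads had been sequenced on a HiSeq2500 from poly(A) RNA, and mapped to GRCm38 with the CLC Genomics Workbench. Per gene and library, the authors deposited counts of exon, uniquely mapped, junction and intron reads without normalization, and RPKM values, which are normalized to exon length and mapped reads and carry other features of that program. TPM values were not used. The annotation release is not given in the sources used here. Of the 9 members, 8 have the same coordinates in GENCODE vM21, Psmb9 being the exception.

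Exon reads were tested with edgeR 4.0.16 (R 4.3.3; filterByExpr, TMM, glmQLFit and glmQLFTest) over all genes, with Benjamini-Hochberg adjustment and a threshold of 0.05. Keratinocyte and T-cell libraries were fitted apart, all 10 libraries together for comparisons between cell types, and 8 for the difference of effects. Standard errors were derived from the F statistics. Ratios of partners were compared by exact permutation tests in scipy 1.17.1. Scripts were tested on simulated data, for keratinocytes with a smaller spread than measured. Replicates differed by more than sampling noise in every group. The alternatives tried were DESeq2 1.42.0, limma 3.58.1 (log2 of RPKM with a pseudocount of 1 or 0.1), scaling by library size, no filter, a filter of 10 reads in every library, uniquely mapped reads, a replicate block, all 10 libraries in 1 fit, leaving out libraries, and subtraction of a T-cell share. Removal of a trend with gene length and leaving out both keratinocyte libraries numbered 2 were added after the data were seen.

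All members were named, with genes of the other lists that passed a test or else the 3 largest and 3 smallest changes, and the 5 most similar genes. The members and lists were chosen with earlier results of these data known. Depth was 12864931 to 18019609 exon reads per library, at which 3 reads on 1 kb of exon equal 0.158 to 0.212 RPKM. This covers counting error only. Tables and plots were made in Python 3.11.15 with numpy 2.4.6, pandas 2.3.3 and matplotlib 3.10.9.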

Additional observations from a re-analysis of the deposited data

Results flagged for a closer look

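For 2 members both co-cultured libraries moved up in keratinocytes and down in T cells, without overlap in either cell type: Psmb10, for which the effect in keratinocytes exceeded that in T cells by 3.40 on the log2 scale (adjusted p = 0.155, edgeR), and Psme2, with 2.61 (adjusted p = 0.186, edgeR). Of all genes, 19.8% were higher in keratinocytes and 13.1% lower in T cells without overlap, and the share with both was not counted. The difference itself did not pass in edgeR, whereas DESeq2 called both (adjusted p = 0.00237 and 0.00925). Both genes were picked by this pattern in the same libraries, so these p-values are not independent of the choice. With 2 libraries a group, no test for single outlying libraries was made.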

How the results depend on the processing

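In keratinocytes 4 members were called with DESeq2, 4 with the replicate block plus removal of the length trend, and 0 with the replicate block alone. Over all genes 0 were called in the main fit and 0 to 515 with the other settings. Without 1 library the log2 fold changes ranged from 1.92 to 3.77 for Psmb8, 2.28 to 4.39 for Psmb9 and 2.49 to 4.19 for Psmb10. All members kept their direction there. The numbers of the labels do not say that libraries are paired. The deviations of same-numbered libraries correlated with r = 0.558, and the replicate block moved the calls over all genes from 0 to 2, or to 515 with the length trend removed. Within numbers the mean differences of the log2 ratios, 2.29 for Psmb8, 2.58 for Psmb9 and 2.67 for Psmb10, equal those without the block by arithmetic and say nothing about pairing, and no block could be fitted across cell types. In T cells in mixed medium 3 members were called, and 1 with all 10 libraries in 1 fit. With DESeq2, with no filter and with the gene length trend removed 4 were called (Psmb8 in addition). Over all genes 776 were called there in the main fit and 701 to 1947 with the other settings. After co-culture against activated T cells 2 were called, 4 with DESeq2, 4 with no filter, 6 with the gene length trend removed and 1 with all 10 libraries in 1 fit. Over all genes 1222 were called there in the main fit and 1158 to 2425 with the other settings. Between co-cultured T cells and keratinocytes 0 members were called, and 3 with the gene length trend removed (Psmb5, Psmb6 and Psmb7, lower). Over all genes 3177 were called there in the main fit and 1904 to 4348 with the other settings. For the difference of effects 0 members were called, 2 with DESeq2 and 1 with no filter (Psmb10), beside 0 to 353 of all genes with the other settings. Except for the replicate block in keratinocytes, counts over all genes are given only as ranges over the settings. Counts of members under a single other setting thus have no share of all genes beside them. The cause of the differences between settings was not tested. The ratios of co-cultured keratinocytes to keratinocytes alone ranged without 1 library from 1.48 to 3.10 for Psmb8, 1.71 to 3.44 for Psmb9, 2.13 to 3.21 for Psmb10, 0.50 to 1.88 for Psme1 and 1.19 to 2.76 for Psme2. The ratios of T cells to keratinocytes, with the groups of each cell type pooled, passed unadjusted without some libraries. Their ranges were 1.41 to 2.44 for Psmb8, 1.70 to 2.87 for Psmb9, 1.29 to 2.48 for Psmb10, 0.91 to 1.59 for Psme1 and 0.46 to 1.49 for Psme2.

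Directions turned for small changes that passed no test. Psme2 in mixed medium against activated was at -0.0355 and -0.0356 with the limma fits, at -0.0631 with the length trend removed and between -0.20 and 0.42 without 1 library. Psmb7 in activated T cells against keratinocytes alone was at 0.0531 and 0.0535 with the limma fits, at 0.0426 with library sizes, at 0.00458 with unique reads and between -0.32 and 0.31 without 1 library. In co-culture against mixed medium Psmb7 was at -0.00225 with the length trend removed, and Psmb9 at 0.00233 with at least 10 reads in every library, at 0.00414 with unique reads and at 0.00414 with all libraries. Psmb10 was at -0.0293 between co-cultured T cells and keratinocytes with the length trend removed. Without 1 library the ranges in co-culture against mixed medium were -0.64 to 0.25 for Psmb5, -0.44 to 0.35 for Psmb6, -0.30 to 0.45 for Psmb7, -0.32 to 0.18 for Psmb8, -0.24 to 0.24 for Psmb9 and -0.71 to 2.1e-05 for Psme1. They were -0.58 to 0.15 for Psmb7 in mixed medium against activated. In co-culture against activated they were -0.49 to 0.17 for Psmb7, -0.50 to 0.21 for Psme1 and -0.47 to 0.00050 for Psme2, and between co-cultured T cells and keratinocytes -0.25 to 0.0376 for Psme2.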
